A study of Capra hircus with 8 samples.

Results

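The genes described here encode the machinery that starts transcription: the subunits of RNA polymerases I, II and III, the Mediator complex, the TAF proteins (TBP-associated factors) and the other general transcription factors. They were chosen by name alone, as every entry of the messenger RNA table whose symbol begins with POLR, MED, TAF or GTF followed by a digit, and 100 of the 22107 entries met that rule. By their known place in the machinery they were sorted into polymerase I (3 genes), polymerase II (7), polymerase III (10), subunits shared between polymerases (6), Mediator (30), TFIID (16), other TAF proteins (7) and other general factors (21). The values come from goat (Capra hircus) embryos at the 8-cell stage, made by somatic cell nuclear transfer (SCNT, 2 libraries) or by in vitro fertilisation (IVF, 2 libraries). SCNT replaces the egg's own chromosomes with the nucleus of a somatic cell. Libraries were made from polyadenylated RNA of directly lysed embryos with Smart-seq2, which copies transcripts to full-length cDNA without marking the strand. The labels name no other treatment or genotype for these groups, and do not give the donor cell type, the breed, the number of embryos in a library, or whether the replicates were separate pools, so the p-values measure only the spread between these samples, which may be technical. The 4-cell embryos and the long non-coding RNA values of the series were not used here.

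Each polymerase has its own work: polymerase I makes the large ribosomal RNA precursor, polymerase II makes messenger RNA, and polymerase III makes transfer RNA, 5S ribosomal RNA and other short RNAs. None of them finds its promoters alone. TFIID, built from the TATA-binding protein TBP and TAF proteins, recognises polymerase II promoters with TFIIA and TFIIB, while TFIIE, TFIIF and TFIIH load the enzyme and open the DNA. SL1 does the recognition at ribosomal RNA genes, and TFIIIC and TFIIIB do it at transfer RNA genes. Mediator carries signals from activators to polymerase II through its head, middle, tail and kinase modules. An early embryo starts with transcripts stored in the egg and later switches on its own genome, so a transcript level at this stage can hold stored and newly made RNA.

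The read totals recovered from the FPKM values (fragments per kilobase of transcript per 1000000 fragments) were close, at 28.4 and 28.5 M reads (M, 1000000) in the SCNT libraries and 27.5 and 30.3 M in the IVF libraries. At least 1 FPKM was reached by 9883 and 11025 genes in SCNT and by 8984 and 9038 genes in IVF. The SCNT replicates stood further apart than the IVF replicates: 2758 of 10303 tested genes had a gap above 1 on the log2 scale between the SCNT replicates, against 730 between the IVF replicates. Among the 91 tested genes of the machinery, 26 had such a gap in SCNT, 20 of them with replicate 2 higher, and 4 had one in IVF. Markers of the oocyte and early embryo (9 of 11 listed genes in the table) were present in every library. They summed to 4035 and 8854 FPKM in SCNT against 2621 and 2730 FPKM in IVF. The largest part was KPNA7, at 1716 and 5415 FPKM in SCNT against 1373 and 1596 FPKM in IVF (adjusted p 0.233, limma). ZAR1 was lower in both SCNT libraries and the others were higher in both. Of the 9, 2 passed as higher in SCNT, ZAR1L and TRIM71. TRIM71, at 0.288 and 0.261 FPKM in IVF, entered the test through SCNT alone, so a difference was built in. Fibroblast markers (10 genes) summed to 83.8 and 83.1 FPKM in SCNT against 133 and 122 FPKM in IVF, with COL1A1 below 1 FPKM in every library and none of the 7 tested genes passing. The lower sum in SCNT rests on DCN, at 33.9 and 39.5 FPKM in SCNT against 94.3 and 85.5 FPKM in IVF. Without DCN the other 9 genes summed to 49.9 and 43.7 FPKM in SCNT against 38.9 and 36.5 FPKM in IVF. COL3A1, VIM, COL1A2 and COL1A1 were higher in both SCNT libraries than in both IVF libraries, COL3A1 by 1.37 on the log2 scale with a limma adjusted p of 0.0550. COL3A1 was below 1 FPKM in both IVF libraries and also entered the test through SCNT alone. FN1, like DCN, was lower in both SCNT libraries, at 9.44 and 11.4 FPKM against 12.2 and 13.5 FPKM in IVF. PDGFRA, LUM, POSTN and THY1 overlapped between groups. Cumulus and granulosa markers (9 of 10 in the table) summed to 60.5 and 93.3 FPKM in SCNT against 84.4 and 89.9 FPKM in IVF. AMH, FSHR and INHA were listed at 0 in all 4 libraries, and none of the 4 tested markers passed. Whether these marker levels have a part in the results below was not tested.

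Across the machinery as a whole, 3 genes rose in SCNT embryos and none fell. The 3 belong to transcription by polymerase III: GTF3C5 and GTF3C4, subunits of TFIIIC, and POLR3E, a subunit of the polymerase itself. They are 3 of the 91 tested genes (3.3%), beside 398 of 10303 genes tested in the whole table (3.86%; 3.02% higher and 0.844% lower) by the same rule of limma with a Benjamini-Hochberg adjusted p under 0.05, so the share is close to that of all genes. At an unadjusted p under 0.05 there were 27 genes higher and 3 lower, 33% of the 91, where all tested genes had 31.1% (25.4% higher and 5.63% lower). All 3 genes that rose were below 1 FPKM in both IVF libraries and entered the test through the SCNT libraries. So did 8 other members, POLR1A, POLR2E, POLR3GL, MED9, MED22, TAF1C, TAF6 and TAF6L. A gene that enters in that way had to differ, and no member entered through IVF alone. Without SCNT replicate 1 the number of members called was 31, of which 8 were lower, beside 36.6% of all genes tested. Without SCNT replicate 2 the number of members called was 1 (3.59% of all genes). That member was GTF2A2, which was lower in SCNT, with a log2 difference of -1.34. The 3 genes that rose have no value in either fit because they fall below the level needed for testing. Without IVF replicate 1 no member passed (1.14% of all genes did), and without IVF replicate 2 only GTF3C4 did (1.95%). On the same 4 libraries, a pseudocount of 0.1 called 2 members (4.07% of all genes) and one of 0.5 called 5 (5.61%). Median centring called 3 (3.84%), rescaling to a common total called 9 (9.65%) and a fit without the variance trend called 1 (2.74%). A filter of 5 FPKM called none (2.12%), as did quantile normalization (2.63%) and a fit with no filter, in which no gene of the table passed.

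The direction was more often upward. The log2 difference, SCNT minus IVF on log2(FPKM + 1), was above 0 for 74 of all 100 genes, and its median over the 100 was 0.58. Over the 91 tested genes the median was 0.61 and 73.6% were above 0, beside a median of 0.39 and 65.8% over all genes tested. Both SCNT libraries lay above both IVF libraries for 50 of the 100 genes and below them for 12, and the groups overlapped for 38. Among tested genes these shares were 52.7% above and 12.1% below, beside 46.9% above and 17.1% below over all genes tested. Centring each library on its median moved the median over all genes to -0.10 and that over the tested members to 0.11. Centring shifts every gene of a library equally, so it cannot change the gap of 0.21 between these medians. Over the alternatives the gap ran from 0.0321 without SCNT replicate 2 to 0.451 without a filter, and it was 0.115 with a filter of 5 FPKM. In these whole-embryo libraries, fewer cells with a transcript and less of it per cell cannot be told apart.

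**Figure D1:**
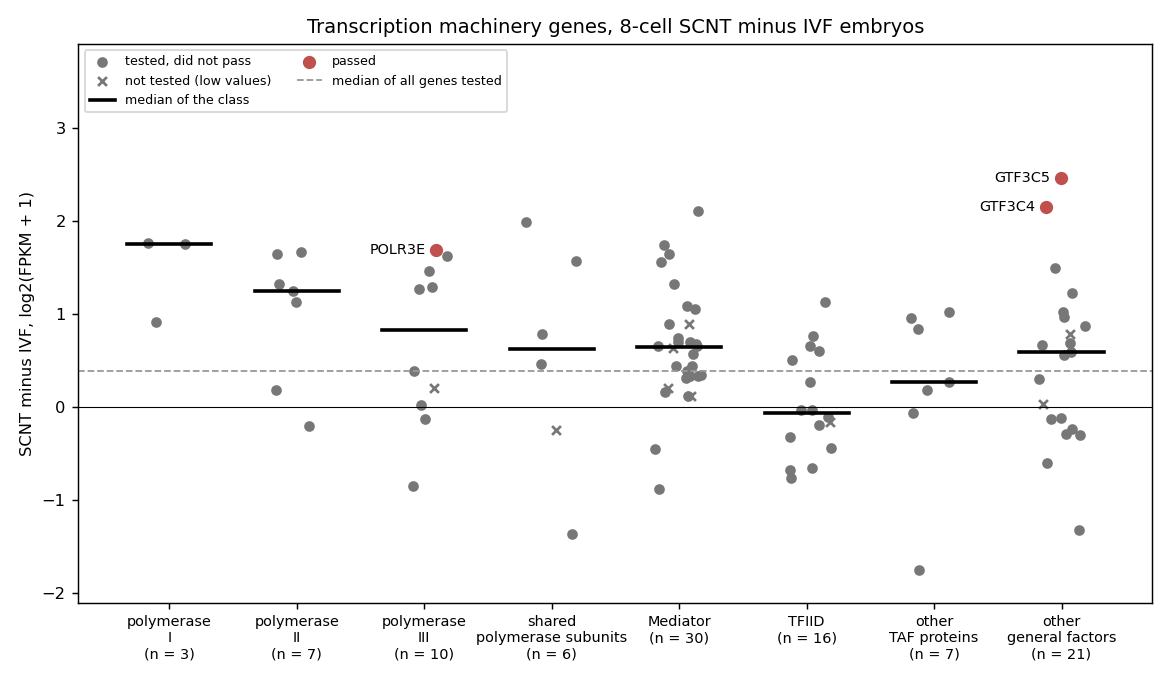
Difference in mean log2(FPKM + 1) between 8-cell SCNT and IVF embryos (y axis) for each of the 100 genes, grouped by complex (x axis). Circles are tested genes, crosses are genes too low to test, red circles passed the test, black bars are class medians over all members and the dashed line is the median of all genes tested (0.39). The class medians run from 1.75 for polymerase I to -0.07 for TFIID, and the 3 red circles are POLR3E, GTF3C4 and GTF3C5.

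The classes were not alike in their medians, although the differences between classes were not tested. The median over all members of a class was 1.75 for polymerase I, 1.24 for polymerase II, 0.83 for polymerase III, 0.62 for shared subunits, 0.65 for Mediator, 0.59 for the other general factors, 0.27 for the other TAF proteins and -0.07 for TFIID. Over tested members alone, the medians of polymerases I, II and III, the shared subunits, Mediator and the other general factors stayed above 0 when libraries were centred on their medians, rescaled to a common total or quantile normalized. With a filter of 5 FPKM, however, the median was -0.45 for the shared subunits, -0.11 for the other general factors and 0.21 for polymerase III. That of the other TAF proteins turned to -0.22 under centring, and that of TFIID was -0.03 on the deposited scale, -0.53 under centring and -0.33 after quantile normalization. Without SCNT replicate 2, the tested-member medians were -0.16 for polymerase III, -0.040 for shared subunits and 0.57 for polymerase II, with fewer genes tested.

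Under the naming rule polymerase I was represented by 3 genes of its own. In each of them both SCNT libraries were above both IVF libraries, as in 46.9% of all genes tested. POLR1A, the largest subunit and part of the catalytic centre, was at 2.26 and 4.89 FPKM in SCNT embryos against 0.283 and 0.294 FPKM in IVF embryos. That is 396 and 860 reads against 48 and 55. Its log2 difference of 1.77 ± 0.41 (SE) came just above the threshold at an adjusted p of 0.0515 with limma. POLR1A entered the test through the SCNT libraries alone, so a difference was built in. POLR1B, the second-largest subunit, was at 11.9 and 11.1 FPKM in SCNT against 4.65 and 6.85 FPKM in IVF (0.91 ± 0.45, adjusted p 0.205). POLR1E, a subunit outside the core that helps the enzyme engage promoters, was the most abundant of the 3 at 32.2 and 67.2 FPKM in SCNT against 18.2 and 9.41 FPKM in IVF (1.75 ± 0.52, adjusted p 0.0748). POLR1B and POLR1E thus had separate groups, with an adjusted p above 0.05. Polymerase I has further subunits with other symbols, which fell outside the rule and are not in the class median. Of these, ZNRD1 overlapped between groups, with a difference of 0.14 (adjusted p 0.88, limma). TWISTNB and CD3EAP had both SCNT libraries higher, with differences of 0.37 and 1.17 and adjusted p-values of 0.552 and 0.132.

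None of the 7 polymerase II genes passed, and in 5 of them the SCNT libraries were both above the IVF libraries (71.4%, beside 46.9% of all genes tested). POLR2A, the largest subunit, whose C-terminal tail recruits capping and splicing factors, was at 5.59 and 15.5 FPKM in SCNT against 1.35 and 3.55 FPKM in IVF (1.67 ± 0.59, adjusted p 0.104, limma). POLR2B, its partner in the catalytic core, was at 12.6 and 8.82 FPKM in SCNT against 10.7 and 7.90 FPKM in IVF, so the groups overlapped (0.18 ± 0.45). The pair that forms the active centre therefore had unlike values, but the difference between the 2 genes was not tested. POLR2J, a small core subunit, was the most abundant of the class at 126 and 383 FPKM in SCNT against 285 and 226 FPKM in IVF. Its IVF values lay between the SCNT values, and its difference of -0.21 was the lowest of the class. POLR2G, part of the stalk that binds emerging RNA, was at 28.9 and 98.7 FPKM in SCNT against 25.0 and 23.0 FPKM in IVF, where the gap between groups rests mostly on SCNT replicate 2 (1.13 ± 0.58, adjusted p 0.217). POLR2D, POLR2I and POLR2M had differences of 1.24, 1.32 and 1.64 with no overlap between groups, and adjusted p-values of 0.12, 0.155 and 0.0634.

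Subunits that more than 1 polymerase uses went both ways. POLR1C, found in polymerases I and III, was at 4.69 and 24.7 FPKM in SCNT against 2.84 and 1.43 FPKM in IVF (1.98 ± 0.70, adjusted p 0.105, limma), with the SCNT replicates far apart. Of the 5 subunits common to all 3 enzymes, POLR2F was the most abundant at 45.1 and 110 FPKM in SCNT against 53.2 and 48.9 FPKM in IVF, and its groups overlapped. POLR2K, a small zinc-binding subunit, was at 36.2 and 10.5 FPKM in SCNT against 53.8 and 50.6 FPKM in IVF (-1.37 ± 0.57, adjusted p 0.146). It was the only shared subunit with both SCNT libraries below both IVF libraries, and the lower of these was SCNT replicate 2. POLR2E had 2.62 and 4.42 FPKM in SCNT against 0.508 and 0.480 FPKM in IVF, with an adjusted p of 0.0579. It entered the test through the SCNT libraries alone, so a difference was built in. The groups of POLR2H overlapped, and POLR2L stayed at 1.01 FPKM or less in every library and was not tested.

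In polymerase III the subunits that passed or came closest were peripheral ones. POLR3E was at 2.77 and 4.20 FPKM in SCNT embryos against 0.525 and 0.233 FPKM in IVF embryos, which is 267 and 407 reads against 49 and 24. It rose by 1.69 ± 0.38 (SE) with a limma adjusted p of 0.04995 just under the threshold, which became 0.194 or 0.234 without IVF replicate 1 or 2. It too entered the test through the SCNT libraries alone. POLR3E forms a heterodimer with POLR3D that takes part in initiation and termination. POLR3D was at 37.2 and 65.3 FPKM in SCNT against 12.5 and 23.5 FPKM in IVF, also without overlap (1.46 ± 0.49, adjusted p 0.0925, limma). POLR3F, of the subcomplex that helps open the promoter, was at 11.2 and 9.93 FPKM in SCNT against 3.40 and 2.19 FPKM in IVF (1.62 ± 0.45, adjusted p 0.0668). The partners of POLR3F in that subcomplex, POLR3C and POLR3G or its relative POLR3GL, gave other values. POLR3C was nearly level, with a difference of 0.02, and POLR3G was lower in both SCNT libraries.

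The catalytic subunits of polymerase III were unlike each other. POLR3A, the largest, was at 4.39 and 6.34 FPKM in SCNT against 1.26 and 2.04 FPKM in IVF (1.26 ± 0.44, adjusted p 0.102, limma). POLR3B was at 16.8 and 20.0 FPKM in SCNT against 18.5 and 22.0 FPKM in IVF, with overlapping groups (-0.13 ± 0.41, adjusted p 0.858). As in polymerase II, the largest subunit had separate groups and the second-largest did not. POLR3K, a small subunit that acts in transcript cleavage and termination, had the highest mean level of the class. It was at 34.3 and 101 FPKM in SCNT against 47.4 and 42.4 FPKM in IVF, and overlapped. CRCP, a polymerase III subunit outside the naming rule, also overlapped, with a difference of 0.0062 (adjusted p 0.989, limma).

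**Figure D2:**
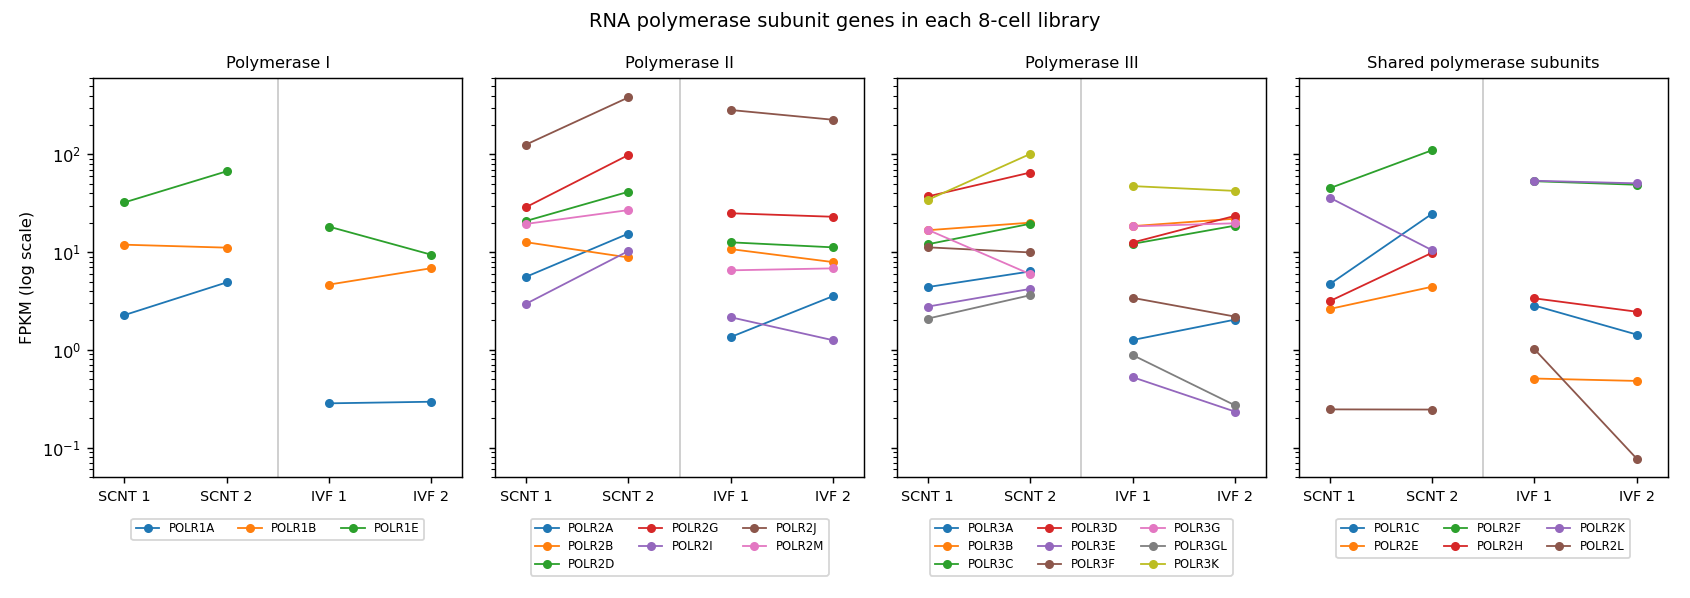
FPKM on a log scale (y axis) of the POLR genes described in the text in the 2 SCNT and the 2 IVF 8-cell libraries (x axis), in panels for polymerases I, II and III and for shared subunits. Lines join the 2 libraries of a group. All 3 polymerase I genes drawn are higher in both SCNT libraries, while POLR2K and POLR3G are lower in both, most of all in SCNT replicate 2.

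TFIIIC binds inside transfer RNA genes and brings in TFIIIB. Both SCNT libraries exceeded both IVF libraries for all 6 of its genes, where 46.9% of all genes tested and 36.1% of all 22107 entries did. Of its 5 tested genes, 2 rose, beside 3.02% of all genes tested. GTF3C5 was at 4.55 and 10.5 FPKM in SCNT embryos against 0.724 and 0.214 FPKM in IVF embryos, from 299 and 690 reads against 46 and 15. It rose by 2.46 ± 0.49 (SE, adjusted p 0.0417, limma), the largest difference of all 100 genes. GTF3C4 was at 3.36 and 6.18 FPKM in SCNT, from 413 and 764 reads. In IVF it was listed at 0 in replicate 1, where a count of 0 allows up to 0.0252 FPKM (3 reads), and at 0.593 FPKM in replicate 2, from 78 reads. It rose by 2.15 ± 0.44 (adjusted p 0.0430). Without IVF replicate 1 or 2 the adjusted p was 0.0573 or 0.136 for GTF3C5 and 0.285 or 0.0350 for GTF3C4, with differences between 1.81 and 2.72. Both genes were tested because they reached 1 FPKM in the SCNT libraries and in neither IVF library, so that a difference was built into their entry to the test. The limit of 0.0252 FPKM covers counting error in IVF replicate 1 alone, and IVF replicate 2 was at 0.593 FPKM. Reads copied by PCR are not independent molecules, so counting error understates the uncertainty of these values.

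The other 4 TFIIIC genes were GTF3C2, GTF3C3, GTF3C6 and GTF3C1. GTF3C2 was at 4.51 and 7.55 FPKM in SCNT against 1.79 and 3.08 FPKM in IVF, and GTF3C3 at 3.76 and 4.50 FPKM in SCNT against 1.05 and 2.31 FPKM in IVF. Their differences of 1.02 and 0.97 had adjusted p-values of 0.18 and 0.174. GTF3C6 was the most abundant of the complex at 34.3 and 24 FPKM in SCNT against 16.0 and 19.6 FPKM in IVF, with the smallest difference (0.67). GTF3C1, the largest subunit, was too low to test, at 0.622 and 1.55 FPKM in SCNT against 0.133 and 0.236 FPKM in IVF. The median over the 6 genes was 1.0. GTF3A, which encodes TFIIIA, the factor specific to 5S ribosomal RNA genes, was at 3.34 and 8.01 FPKM in SCNT against 2.19 and 3.71 FPKM in IVF, with overlap.

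Only some partners of polymerase III outside the naming rule are described here, and they were mixed. SNAPC2, a subunit of the complex that directs transcription of small nuclear RNA genes by polymerases II and III, was at 12.0 and 26.6 FPKM in SCNT against 1.89 and 1.49 FPKM in IVF. It rose by 2.82 ± 0.51 (adjusted p 0.0367, limma) and was the only gene to pass among 45 tested in a list of 51 partners of the machinery, with none lower. Its adjusted p was 0.0716 or 0.0853 without IVF replicate 1 or 2, and it still passed without either SCNT replicate. The TFIIIB genes BRF1 and BRF2 were too low to test, BRF1 at 0.230 and 0.609 FPKM in SCNT against 0.0082 and 0.171 FPKM in IVF. BRF2 was at 0.0545 and 1.66 FPKM in SCNT against 0 and 0.102 FPKM in IVF. BDP1, the other TFIIIB protein, was at 14.1 and 4.50 FPKM in SCNT against 11.7 and 11.9 FPKM in IVF, where the IVF values lay between the SCNT values.

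None of the 30 Mediator genes passed, and 28 of them had a difference above 0, with a median of 0.65. Both SCNT libraries were above both IVF libraries for 17 of them (56.7%) and below for 1 (3.33%), beside 46.9% and 17.1% of all genes tested. A difference above 0 was found in 65.8% of all genes tested. Over all 22107 entries, tested or not, the shares above, below and with a difference above 0 were 36.1%, 11.5% and 62.0%. MED21, of the middle module, and MED6, of the head, were the most abundant. MED21 was at 159 and 335 FPKM in SCNT against 177 and 164 FPKM in IVF, and MED6 was at 195 and 162 FPKM in SCNT against 206 and 99.3 FPKM in IVF. Both overlapped between groups.

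By module, the tail, which receives activators, had the highest median over its members (0.89, 5 genes), then the scaffold subunit MED14 (0.70), the head (0.65, 7), the 4 subunits between head and tail (0.45), the middle (0.44, 9) and the kinase module (0.42, 4). MED24, a tail subunit, was at 5.43 and 14.1 FPKM in SCNT against 0.577 and 2.29 FPKM in IVF (2.11 ± 0.58, adjusted p 0.066, limma), the largest difference in Mediator. In the tail, MED15, MED16 and MED23 also had separate groups, with differences of 1.56, 0.89 and 0.89, while MED25 overlapped. In the head, MED22 and MED8 had differences of 1.74 and 1.65 with adjusted p-values of 0.0579 and 0.0776. In the middle module MED9 was at 1.51 and 2.54 FPKM in SCNT against 0 and 0.418 FPKM in IVF, with an adjusted p of 0.0659. MED22 and MED9 entered the test through the SCNT libraries alone, so a difference was built in. MED4, of the middle module, was the only Mediator gene with both SCNT libraries below both IVF libraries, at 65.0 and 36.2 FPKM in SCNT against 97.8 and 83.8 FPKM in IVF (-0.88 ± 0.43, adjusted p 0.201). The module order rests on few genes each and was not tested.

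**Figure D3:**
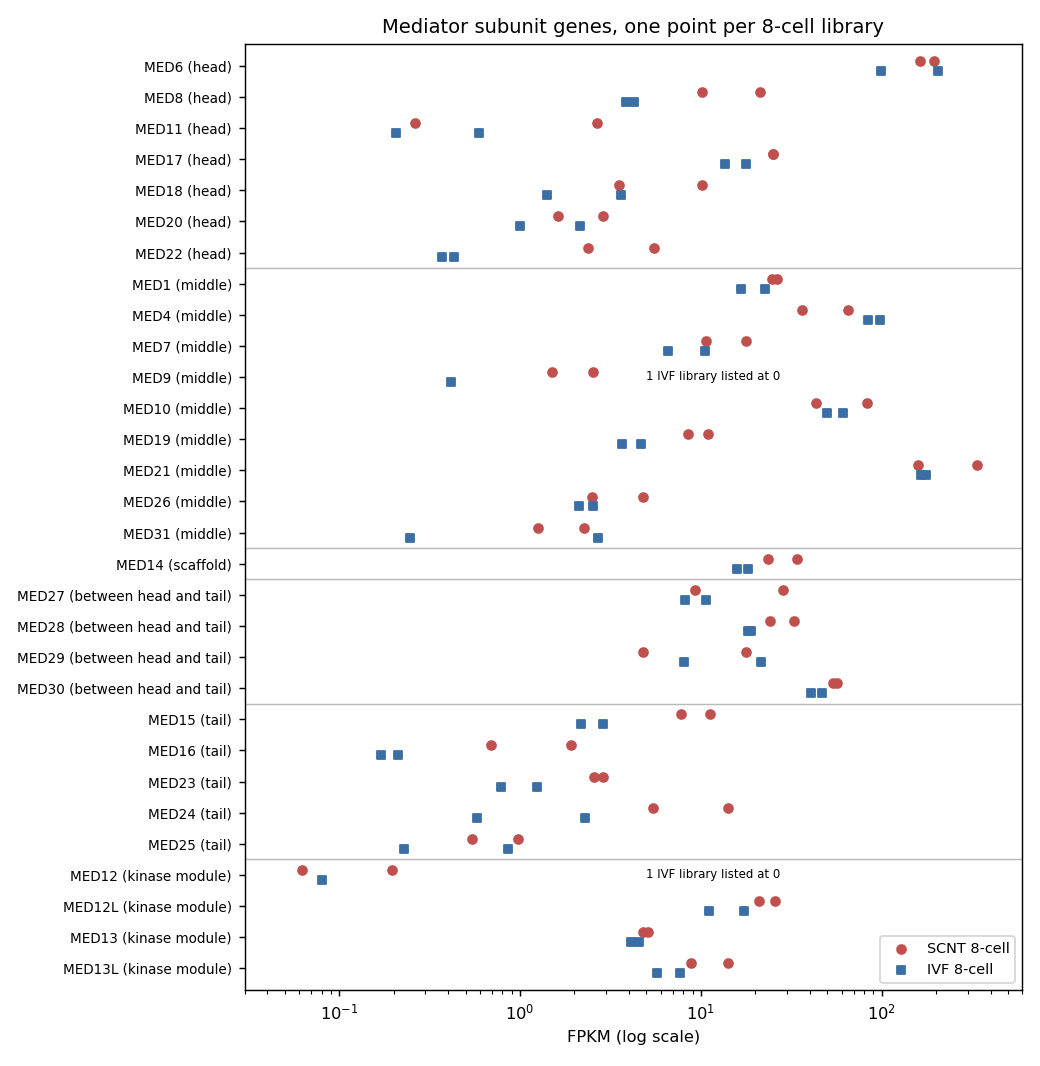
FPKM on a log scale (x axis) of the 30 Mediator genes (y axis, grouped by module), with 1 point for each of the 2 SCNT (red circles) and 2 IVF (blue squares) 8-cell libraries. Red points lie to the right of both blue points in 17 genes and to the left in MED4. MED9 and MED12 were listed at 0 in 1 IVF library, which a log axis cannot show.

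The kinase module, which holds CDK8 or CDK19 with cyclin C and sets Mediator apart from polymerase II when bound, had far higher transcript levels of MED12L than of MED12. Both genes overlap other genes in the RefSeq annotation, MED12L 5 and MED12 2, whose reads cannot be told apart from theirs. MED12 was at 0.0627 and 0.195 FPKM in SCNT, from 8 and 25 reads, and at 0.0809 and 0 FPKM in IVF, from 10 and 0 reads. MED12L was at 20.9 and 25.8 FPKM in SCNT against 11.1 and 17.3 FPKM in IVF. MED13 was at 5.12 and 4.79 FPKM in SCNT against 4.56 and 4.12 FPKM in IVF, below its relative MED13L at 8.85 and 14.1 FPKM in SCNT against 5.71 and 7.69 FPKM in IVF. Of the kinases, CDK8 was at 84.4 and 84.0 FPKM in SCNT against 115 and 132 FPKM in IVF (-0.55 ± 0.38, adjusted p 0.349, limma), and CDK19 was at 3.21 and 3.50 FPKM in SCNT against 3.38 and 2.68 FPKM in IVF. CCNC, cyclin C, was at 3.57 and 1.90 FPKM in SCNT against 2.40 and 0.497 FPKM in IVF. MED12 was far below MED12L and CDK19 far below CDK8 in both kinds of embryo, and none of the tested genes of this module passed.

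TFIID had no gene that passed. Of its 16 genes, 4 had both SCNT libraries above both IVF libraries (25.0%), 4 had them below (25.0%) and 8 overlapped, beside 46.9% above and 17.1% below of all genes tested. Of all 22107 entries, tested or not, 36.1% were above and 11.5% below. TAF12, which pairs with TAF4 through histone folds, was the most abundant at 223 and 225 FPKM in SCNT against 394 and 365 FPKM in IVF, with replicates close together (-0.76 ± 0.37, adjusted p 0.201, limma). TAF13, the partner of TAF11, was at 171 and 23.7 FPKM in SCNT against 103 and 104 FPKM in IVF, so the IVF values lay between SCNT values that differed widely. TAF9 was also lower in both SCNT libraries, at 52.2 and 39.2 FPKM against 83.3 and 61.6 FPKM in IVF (-0.65 ± 0.41, adjusted p 0.302). TAF6, its histone-fold partner, was the TFIID gene with the largest difference, at 1.39 and 2.79 FPKM in SCNT against 0.119 and 0.682 FPKM in IVF (1.13 ± 0.39, adjusted p 0.102). It entered the test through the SCNT libraries alone, so a difference was built in. TAF1, the largest subunit and a reader of acetylated histones, was at 9.77 and 10.8 FPKM in SCNT against 4.73 and 7.93 FPKM in IVF (0.66 ± 0.46, adjusted p 0.359). TAF3 and TAF8 were the other 2 with both SCNT libraries higher, with differences of 0.61 and 0.76.

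The TBP family is the DNA-binding heart of these factors and was present in all 3 forms. TBP was at 19.1 and 35.9 FPKM in SCNT against 13.2 and 18.7 FPKM in IVF (0.70 ± 0.47, adjusted p 0.338, limma). TBPL2, which takes the place of TBP in growing mouse oocytes, was at 23.1 and 17.1 FPKM in SCNT against 36.4 and 46.9 FPKM in IVF (-1.02 ± 0.42, adjusted p 0.14). TBPL1, a relative that does not bind the TATA box, was by far the most abundant of the family at 1796 and 935 FPKM in SCNT against 2677 and 2640 FPKM in IVF (-1.04 ± 0.44, adjusted p 0.153). Both SCNT libraries were above both IVF libraries for TBP and below them for TBPL1 and TBPL2, without any of the 3 passing.

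Outside TFIID, the TAF proteins serve other complexes. In SL1, the promoter factor of polymerase I, TAF1A was at 181 and 113 FPKM in SCNT against 142 and 112 FPKM in IVF, and TAF1B at 68.6 and 37.7 FPKM in SCNT against 51.1 and 55.6 FPKM in IVF. Both overlapped. TAF1D was at 15.2 and 3.97 FPKM in SCNT against 40.9 and 20.6 FPKM in IVF (-1.74 ± 0.63, adjusted p 0.108, limma), the lowest difference of all 100 genes. In the RefSeq annotation TAF1D overlaps another gene, and without strand information reads of overlapping genes cannot be told apart. TAF15, an RNA-binding protein of the FET family, had the largest difference of this class, at 5.45 and 11.3 FPKM in SCNT against 4.29 and 2.63 FPKM in IVF (1.02 ± 0.51, adjusted p 0.208). The other polymerase I partners did not pass either. RRN3, which joins the polymerase to SL1, was at 85.7 and 43.5 FPKM in SCNT against 25.5 and 35.2 FPKM in IVF (1.0 ± 0.46, adjusted p 0.181). UBTF, which binds along ribosomal RNA genes, was at 2.66 and 3.29 FPKM in SCNT against 0.852 and 1.53 FPKM in IVF (0.87 ± 0.40, adjusted p 0.176).

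Among the other polymerase II factors, no TFIIA gene passed, and none had a difference above 0. GTF2A2, its small subunit, was at 144 and 148 FPKM in SCNT against 376 and 357 FPKM in IVF. The replicates of each group lay within a few percent of each other and the groups were apart, with a difference of -1.32 ± 0.37 and an adjusted p of 0.0669 (limma). With libraries centred on their medians its adjusted p was 0.0425, and it was the only member called lower there. The large subunit GTF2A1 was at 63.7 and 48.7 FPKM in SCNT against 51.8 and 71.6 FPKM in IVF, and its relative GTF2A1L, known from germ cells, was at 98.1 and 103 FPKM in SCNT against 113 and 105 FPKM in IVF. GTF2A2 overlaps a non-coding gene and a pseudogene in the RefSeq annotation, and its reads cannot be told apart from theirs.

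TFIIB, TFIIE, TFIIF and TFIIH had no gene that passed. In TFIIE, which recruits TFIIH, the 2 subunits lay on opposite sides. GTF2E1 was at 132 and 124 FPKM in SCNT against 47.8 and 61.7 FPKM in IVF (1.22 ± 0.39, adjusted p 0.083, limma), and GTF2E2 was at 45.3 and 32.2 FPKM in SCNT against 56.9 and 59.7 FPKM in IVF (-0.60 ± 0.40, adjusted p 0.338). GTF2B was at 15.0 and 19.0 FPKM in SCNT against 9.75 and 7.91 FPKM in IVF, without overlap. Of the 4 TFIIH genes under the naming rule, GTF2H1 and GTF2H4 had both SCNT libraries higher and GTF2H3 and GTF2H5 overlapped. Differences over these 4 lay between -0.29 and 1.5. Among TFIIH genes outside the rule, ERCC3 and CCNH were higher in both SCNT libraries, with differences of 1.23 and 0.38. MNAT1 was lower in both (-0.45), and ERCC2 was too low to test. CDK7, the TFIIH kinase that phosphorylates the polymerase II tail, was at 607 and 383 FPKM in SCNT against 314 and 347 FPKM in IVF (0.54 ± 0.40, adjusted p 0.386).

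**Figure D4:**
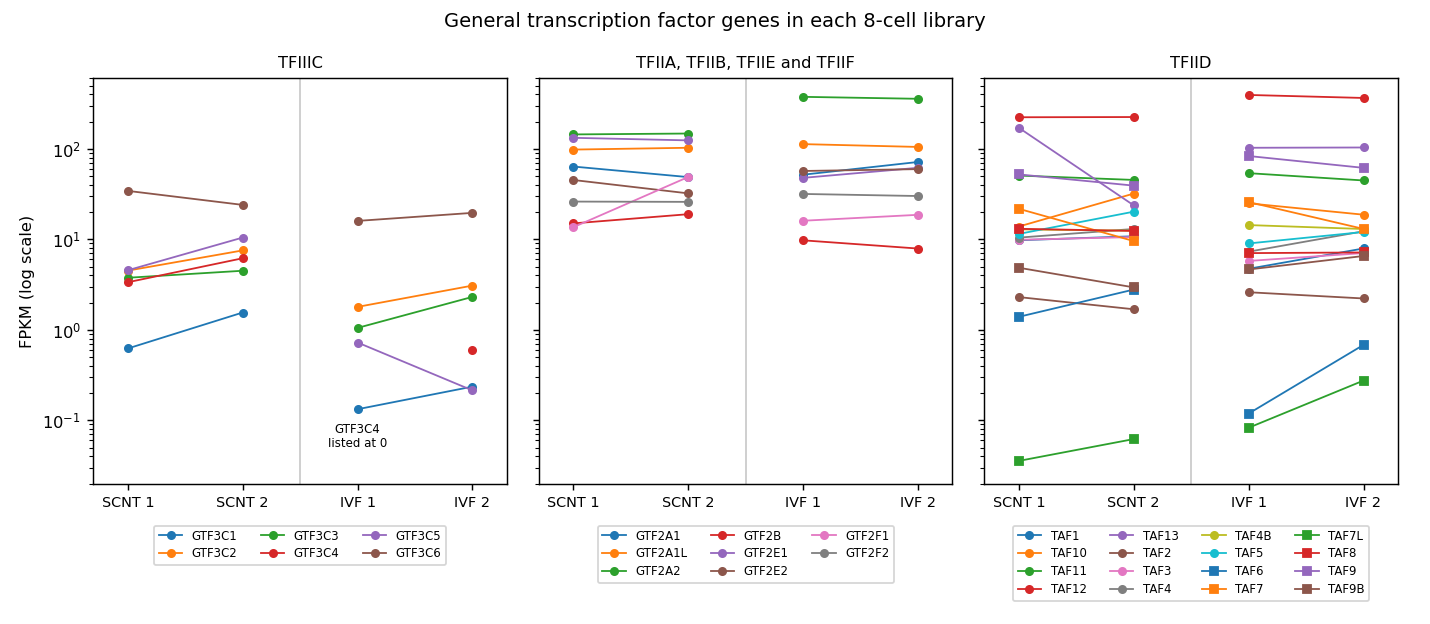
FPKM on a log scale (y axis) of the genes of TFIIIC, of TFIIA, TFIIB, TFIIE and TFIIF, and of TFIID in the 2 SCNT and the 2 IVF 8-cell libraries (x axis). Lines join the 2 libraries of a group. In the TFIIIC panel all 6 genes are higher in both SCNT libraries, GTF2A2 is lower in both, and in the TFIID panel TAF13 differs between the SCNT replicates (171 and 23.7 FPKM) more than between groups.

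Related genes, some of which serve the same complex and some different ones, were compared within each library as a difference of log2(FPKM + 1), the value of the pair's first gene minus that of its relative. With 2 libraries against 2, an exact permutation test cannot pass 0.05, so these are descriptions. POLR3G exceeded POLR3GL by 2.54 and 0.59 in SCNT and by 3.36 and 4.03 in IVF. POLR3G, the form linked to stem cells and early embryos in human and mouse, was at 16.9 and 5.95 FPKM in SCNT against 18.4 and 19.7 FPKM in IVF (-0.84 ± 0.53, adjusted p 0.308, limma). POLR3GL, the form of most adult tissues, was at 2.09 and 3.62 FPKM in SCNT against 0.884 and 0.270 FPKM in IVF (1.29 ± 0.41, adjusted p 0.0826). It entered the test through the SCNT libraries alone, so a difference was built in. TBP minus TBPL2 was -0.26 and 1.03 in SCNT and -1.40 and -1.28 in IVF. These 2 pairs, together with CDK8 with CDK19 and MED12 with MED12L, had no overlap between groups, and the other 7 pairs overlapped. MED12 was at 0.195 FPKM or less in every library, so the difference of its pair mostly follows the level of MED12L.

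The overlapping pairs differed in how far apart their levels were. TAF9 exceeded TAF9B, which was at 4.85 and 2.94 FPKM in SCNT against 4.64 and 6.54 FPKM in IVF, by 3.05 to 3.9 in all 4 libraries. TAF7 was at 21.7 and 9.57 FPKM in SCNT against 25.8 and 13 FPKM in IVF, while TAF7L, known from male germ cells, was below 0.3 FPKM in each library. TAF4 minus the germ-cell form TAF4B was -0.28 and 0.06 in SCNT and -0.89 and -0.08 in IVF, furthest apart in IVF replicate 1. TAF4 was at 10.4 and 13 FPKM in SCNT against 7.30 and 12.3 FPKM in IVF. TAF4B was at 12.9 and 12.5 FPKM in SCNT against 14.4 and 13 FPKM in IVF. TAF5L and TAF6L are the counterparts of TAF5 and TAF6 in the SAGA coactivator. TAF5 minus TAF5L was -0.30 and 0.52 in SCNT and -0.38 and 0.13 in IVF. TAF6 minus TAF6L was 0.06 and 0.13 in SCNT and -0.46 and 0.30 in IVF. Both TAF6 and TAF6L were below 1 FPKM in both IVF libraries, where the pseudocount draws their difference towards 0. How close their levels were in IVF can therefore not be judged.

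**Figure D5:**
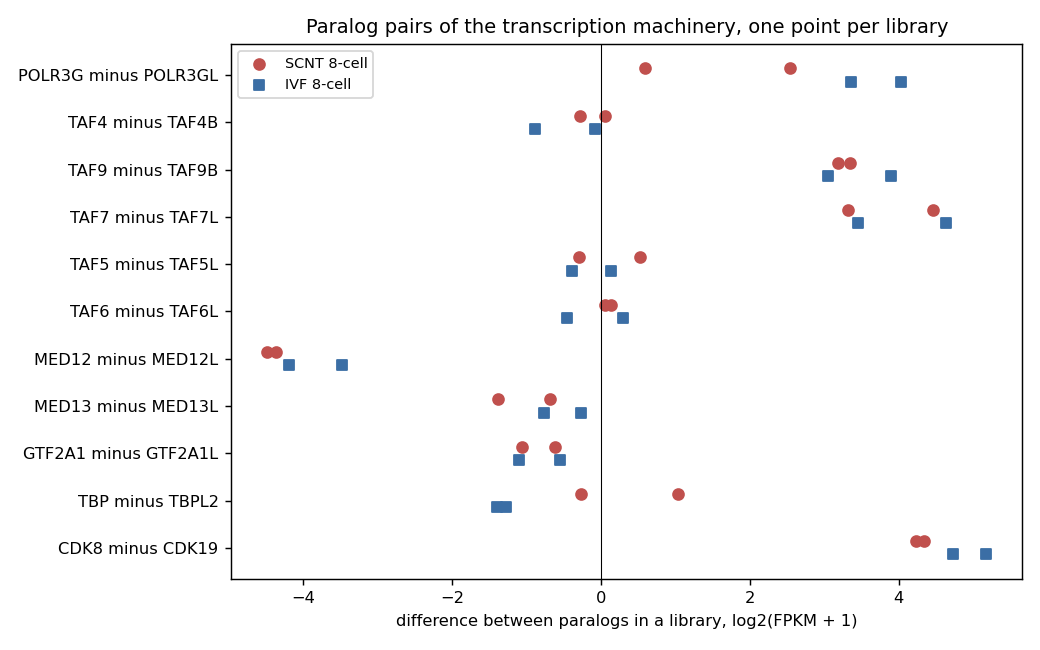
Difference in log2(FPKM + 1) between the genes of 11 related pairs within a library (x axis), with 1 point for each of the 2 SCNT (red circles) and 2 IVF (blue squares) 8-cell libraries. A value above 0 means that the gene named before its relative is at the higher level. The groups do not overlap for POLR3G with POLR3GL, MED12 with MED12L, TBP with TBPL2 and CDK8 with CDK19.

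Among the 51 partners as a whole, the SCNT libraries were both above the IVF libraries in 31 (60.8%) and both below in 6 (11.8%), beside 46.9% and 17.1% of all genes tested. Of all 22107 entries, tested or not, 36.1% were above and 11.5% below. At an unadjusted p under 0.05 there were 12 higher (26.7%) and 4 lower (8.89%) of the 45 tested, beside 25.4% and 5.63% of all genes tested. The median difference over the tested partners was 0.61. POLRMT, the polymerase of mitochondria, was too low to test, at 0.651 and 1.16 FPKM in SCNT against 0.0960 and 0.191 FPKM in IVF.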

How the data were processed

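RNA from 8-cell goat embryos was measured in 4 libraries, SCNT (2) and IVF (2). The authors deposited FPKM per gene; the tools listed in the submitters' processing notes are fastp, HTSeq and HISAT2 2.2.1. Build and annotation: not given in the sources used here. Counts were not used. Read totals and read numbers were recovered from the steps of the deposited FPKM values: 799 genes gave the same total, 92.1% of 8697 implied lengths under 3000 bases came out whole within 0.03 base, and read numbers followed for 96 of the 100 genes.

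Genes with at least 1 FPKM in at least 2 of the 4 libraries (10303, among them 91 of the 100) were tested on log2(FPKM + 1) with limma 3.58.1 in R 4.3.3 (lmFit, eBayes with trend), two-sided, with Benjamini-Hochberg adjustment over all 10303 genes and a threshold of 0.05. The pseudocount makes log2 differences smaller than the true ratio for low genes. The 9 genes too low to test are given as values. The fit was tested on simulated data with known log2 changes of 3 and 5 only. The largest difference of the 100 genes, 2.46, was smaller, so that test does not show how well such differences are found. A fit across all genes gives the adjusted p-values; where leaving out a library left 1 in a group, that library is assumed to vary like the others.

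The genes described in full were those past the threshold, in each class the 2 most abundant and the tested genes with the largest positive and negative difference, the 2 largest subunits of each polymerase, and related pairs, plus a fixed set of partners; a few others just above the threshold or needed to complete a complex were added after their values were seen. The members, partner list and marker lists were chosen with earlier results of these data known. Gene names and overlaps were read from the RefSeq table for ARS1.2, in which all 100 members were found; 28 of them, among them POLR2B, POLR3GL, MED6, MED12, MED12L, MED13, TAF1, TAF5, TAF6 and TAF9, overlap another gene, and without strand the reads of overlapping genes cannot be told apart. The values of 1 polymerase III member are not reported here, although it is counted. POLR1D and POLR2C are not among the 100 entries and were not analysed here. The subunits ZNRD1, TWISTNB and CD3EAP of polymerase I and CRCP of polymerase III carry other symbols and were counted among the partners. The alternatives were pseudocounts of 0.1 and 0.5, no filter, a filter of 5 FPKM, median centring, rescaling each library to 1000000, quantile normalization, eBayes without trend, a replicate block, and leaving out each library.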

Additional observations from a re-analysis of the deposited data

How the results depend on the processing

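GTF3C5, GTF3C4, POLR3E and the partner SNAPC2 kept a positive difference in each of the 13 alternatives that gave them a value. The balance of calls did change, and median centring called 2 machinery genes higher and 1, GTF2A2, lower. The number of machinery genes called (3) was 5 with a pseudocount of 0.5, 0 without a filter, 0 with a filter of 5 FPKM, 9 after rescaling, 0 after quantile normalization and 18 with the replicate block (17 higher, 1 lower, the 3 genes among them, beside 18.7% of all genes). Without a filter no gene of the whole table passed limma's adjusted threshold, and 23 of the 100 genes (23.0%) were at an unadjusted p under 0.05, beside 3661 of 20289 (18.0%). Over all genes, 398 calls became 0, 133, 1208 and 1924 without a filter, at 5 FPKM, after rescaling and with the block. Leaving out a library gave 0 to 31 genes of the machinery and 114 to 3384 of all genes. With median centring 396 genes were called, 158 higher and 238 lower, against 311 and 87 on the deposited scale. Quantile normalization called 271 genes, 121 higher and 150 lower. Lower calls thus outnumbered higher ones under both, and the cause of these changes was not tested. The replicate numbers are not shown to pair libraries: across the tested genes, replicate 2 minus 1 in SCNT and in IVF correlated at 0.117, with 2 pairs.

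GTF3C5, GTF3C4 and POLR3E had values in 10 alternatives and were called in 6, 5 and 3 of them, with adjusted p between 0.00776 and 0.242, 0.00641 and 0.285, and 0.0173 and 0.242. SNAPC2 was called in 10 of 13 (0.00263 to 0.242), not without a filter or without either IVF replicate. GTF2A2, above the threshold in the report, was called in 3 of 13 (0.00752 to 0.556).

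The median over tested members (0.61) was 0.39 with the 5 FPKM filter, 0.11 centred and 0.27 quantile normalized, and 0.30 to 0.61 when a library was left out. At 5 FPKM, class medians were 1.33 for polymerase I, 0.21 for polymerase III, -0.45 for shared subunits and -0.11 for other general factors. Centred, they were 1.26, 0.75 and 0.77 for polymerases I, II and III, 0.16 for Mediator, -0.53 for TFIID, -0.22 for other TAF proteins and 0.10 for other general factors. Quantile normalized, they were 1.25, 0.89, 0.72, 0.32 for Mediator, -0.33 for TFIID and 0.27 for other general factors. Without a filter, polymerase III was at 0.83. Leaving out a library gave 1.09 to 1.76 for polymerase I, 0.57 to 1.87 for II, -0.16 to 1.16 for III, -0.040 to 1.29 for shared subunits, 0.36 to 0.71 for Mediator, -0.17 to 0.10 for TFIID, -0.16 to 0.36 for other TAF proteins and 0.16 to 0.66 for other general factors. The mean over 4 libraries of TAF7 minus TAF7L (3.97) was 6.38, 4.79 and 5.03 with pseudocounts of 0.1 and 0.5 and after rescaling, that of MED12 minus MED12L (-4.13) was -6.72, -4.99 and -5.26, and that of CDK8 minus CDK19 (4.62) was 4.96 at 0.1.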

Other observations

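Outside the naming rule, 4 partner genes are given here that were picked out after their values were seen and did not pass, so they say nothing of their complexes as a whole. LARP7 and HEXIM1 encode parts of the complex that keeps the elongation kinase P-TEFb inactive. LARP7 was at 143 and 49.3 FPKM in SCNT embryos against 340 and 306 FPKM in IVF embryos (-1.93, adjusted p 0.065, limma). HEXIM1 was at 0.609 and 1.01 FPKM in SCNT against 3.86 and 2.80 FPKM in IVF (-1.26, adjusted p 0.0811). NELFE and NELFCD encode subunits of the negative elongation factor that pauses the polymerase. NELFE was at 2.65 and 8.25 FPKM in SCNT against 0.338 and 0.438 FPKM in IVF (2.07, adjusted p 0.055), and NELFCD at 6.94 and 7.33 FPKM in SCNT against 2.14 and 1.02 FPKM in IVF (1.69, adjusted p 0.064). Both SCNT libraries lay below both IVF libraries for LARP7 and HEXIM1 and above them for NELFE and NELFCD. Of the other subunits of that factor, NELFA was at 1.51 and 1.99 FPKM in SCNT against 0.682 and 0.879 FPKM in IVF (0.62, adjusted p 0.253), and NELFB was too low to test. NELFE and NELFA entered the test through the SCNT libraries alone, so a difference was built in. CDK9, the P-TEFb kinase, was at 41.1 and 53.1 FPKM in SCNT against 19.1 and 34.0 FPKM in IVF.

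GTF3C4 and GTF3C5, the TFIIIC genes that rose, lie near each other in the RefSeq order of protein-coding genes (assembly ARS1.2), with 4 genes between them, AK8, SPACA9, TSC1 and GFI1B. No other RefSeq gene overlaps either of them or POLR3E. Across the 86 members with a recovered length that were tested, the Spearman correlation of length with the log2 difference was 0.215, and across 9112 genes it was -0.034. Genes are not independent replicates, and the points share the same 4 libraries.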
